A study of Homo sapiens with 21 samples.

Results

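The contribution of the internal part of the EWS domain to gene regulation was examined in 6 of the 21 RNA-seq libraries of the study, 3 of cells rescued with the mut9 construct and 3 of cells rescued with full-length EWS/FLI. The members are libraries, chosen by their labels alone, and the comparison is mut9 relative to WT-EF within 3 replicate sets, each a separate knockdown and rescue experiment. All groups were made from A673, an established human line of Ewing sarcoma that proliferates after loss of its fusion, and 1 line stands here for the disease. Cells received shRNA virus on day 1 and cDNA virus on day 5, and were kept under puromycin (2 µg/ml) and hygromycin (400 µg/ml) to day 16. In the iLuc group the shRNA was directed against luciferase and the endogenous fusion was kept. In the iEF group the shRNA was directed against the fusion transcript, within its 3′ untranslated region, and the second virus carried no cDNA. WT-EF, mut9, DAF and DAF-mut9 cells carried the same shRNA as iEF cells and a FLAG-tagged cDNA. WT-EF is the wildtype fusion, and mut9 keeps the beginning of the EWS domain, with the repeat region named SYGQ1, and a short piece next to FLI, and lacks most of the rest. DAF is full length, with tyrosines of the N-terminal EWS repeats changed to alanine, and DAF-mut9 has alanine in place of the repeat tyrosines left in mut9. The remaining group, del22, received a cDNA without the EWS domain, and entered the fits only through the shared estimate of the spread. The level of each construct as protein was not analysed here.

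EWS/FLI joins the low-complexity domain of EWS, which is rich in tyrosine, glycine, serine and glutamine and can bind copies of itself and other proteins, to the DNA-binding domain of the ETS factor FLI. The fusion binds GGAA microsatellites, where it opens chromatin and activates nearby genes, and single ETS sites. A large set of other genes, many of them mesenchymal, adhesive and inflammatory, is repressed when the fusion is present. The comparison therefore has 2 sides, the genes that the fusion activates and those that it holds down.

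Library totals of the 6 libraries were 33.5 to 43.8 M counts, and 1 CPM (counts per 1 M, after scaling by trimmed mean of M-values, TMM) stood for 34.4 to 43.3 counts. Replicate libraries of a group differed by more than sampling noise, with a chi-square of 21.3 to 38.7 per degree of freedom. Markers of the Ewing line were present in all 6 libraries: STEAP1 lay between 93.0 and 129 CPM, LIPI between 37.8 and 125 CPM and NR0B1 between 25.6 and 56.6 CPM. NKX2-2 was low, between 1.57 and 4.05 CPM. CD99, a surface marker of Ewing sarcoma, had no more than 2 counts in any of them. CD99 lies in a region that the reference holds on both sex chromosomes. Of markers of other cell types, CD3E had no count in the 6 libraries and MYOD1, LYZ, MYOG and CDH1 no more than 4 counts in any. The summed level of all markers of other cell types was 47.6 to 68.7 CPM with mut9 and 42.6 to 50.4 CPM with WT-EF. Without the keratins KRT8 and KRT18 it was 3.17 to 3.87 CPM with mut9 and 1.84 to 2.10 CPM with WT-EF. Among the 11 tested 1 rose, CD14, a co-receptor for bacterial lipopolysaccharide on myeloid cells, at 0.477 ± 0.0599 CPM with WT-EF and 1.66 ± 0.142 CPM with mut9 (SD, n = 3). The part of other cells in any result was not tested, and more cells expressing a gene cannot be told apart from more RNA per cell in bulk samples.

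The repeats that the fusion is known for are shown first, as examples of the sequence at which it activates genes. The longest run of consecutive GGAA units, on either strand, was sought from 5000 bases before to 1000 after the annotated start of each gene in GRCh37. Runs of at least 4 units stood near 2.49% of the 16404 protein-coding genes tested. The windows below hold 6 units in capitals, written on the strand that reads GGAA, with 3 flanking bases in lower case, and come from the longer runs near 4 genes activated by the endogenous fusion.
LIPI, 11 units, from 2380 bases before the start, chr21:15585610-15585639: gaaGGAAGGAAGGAAGGAAGGAAGGAAagg
SLAIN1, 13 units, from 4115 bases before the start, chr13:78267704-78267733: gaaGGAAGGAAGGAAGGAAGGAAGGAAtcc
CCK, 13 units, from 703 bases before the start, chr3:42308326-42308355: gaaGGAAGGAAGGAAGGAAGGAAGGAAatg
NR0B1, 11 units, from 1411 bases before the start, chrX:30328872-30328901: gaaGGAAGGAAGGAAGGAAGGAAGGAAaag
In all 4 windows the repeat was on the minus strand of the reference. LIPI, SLAIN1 and CCK were lower with mut9, whereas NR0B1 was not called (values are given with the activated genes). These 4 are examples and do not stand for repeat genes in general. Among 87 protein-coding genes with such a run, activated at least 2-fold by the endogenous fusion, 11 (12.6%) were lower. The share without such a run in the window searched was 10.7%.

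The fusion transcript was examined first. FLI1 (ENSG00000151702, chr11:128556430-128683162, plus strand) collects reads of the cDNA, of the endogenous fusion and of any FLI1 transcript, and cannot separate them. FLI1 was measured at 21.9, 25.2 and 26.5 CPM in the 3 WT-EF libraries and at 28.3, 33.4 and 30.4 CPM in the 3 mut9 libraries. The groups did not overlap, yet the difference did not pass the test (log2 fold change 0.33 ± 0.13 SE, adjusted p = 0.17 by edgeR's quasi-likelihood test, 95% interval 0.05 to 0.60). The level was 20.6 ± 0.553 CPM in iEF, 70.3 ± 16.2 CPM in iLuc, 37 ± 2.43 CPM in DAF and 36.3 ± 1.49 CPM in DAF-mut9 cells (SD, n = 3 each). When only the 6 libraries were fitted, the same difference passed (log2 fold change 0.29, adjusted p = 0.0272 by edgeR). EWSR1 (ENSG00000182944, chr22:29663998-29696515, plus strand), whose reads also hold the EWS part of the constructs, was at 284, 282 and 284 CPM with WT-EF and at 270.0, 268 and 264 CPM with mut9. Here too the groups did not overlap and the test was not passed (log2 fold change -0.08 ± 0.09, adjusted p = 0.73 by edgeR). Since FLI1 was also counted in iEF cells, which carry no cDNA, these tests do not measure the amount of construct.

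Across the genome the difference was uneven. Of 30549 genes tested, 1878 (6.15%) differed between mut9 and WT-EF at an adjusted p below 0.05, 1511 (4.95%) higher and 367 (1.2%) lower with mut9. At least a 2-fold change was reached by 811 of the higher and 154 of the lower genes, and at least an 8-fold change by 78 and 12. The CPM values of the 2 groups did not overlap in 1767 of the 1878 called genes, against 25% of all genes tested. With library totals alone in place of TMM, 1945 genes were called, of which 55.6% rather than 80.5% were higher with mut9, and the median log2 fold change of all genes moved from 0.05 to -0.06. Leaving out single libraries reduced the count to between 696 (without WT-EF replicate 2) and 1817 (without mut9 replicate 2), with 824 without mut9 replicate 1, 933 without WT-EF replicate 3, 1060 without mut9 replicate 3 and 1366 without WT-EF replicate 1.

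Among called genes averaging at least 5 CPM, the 12 highest with mut9 relative to WT-EF were MMP9, CCL2, APOL3, CXCL10, NNMT, C2CD4A, ICAM1, C1S, LIF, XAF1, KYNU and TM4SF1, between 8.19-fold and 32-fold higher. The groups did not overlap in any of them, as in 1767 of all 1878 called genes. MMP9 (ENSG00000100985, chr20:44637547-44645200, plus strand), a secreted gelatinase that degrades basement membrane, was at 1.42, 1.45 and 0.982 CPM with WT-EF and at 43.4, 25.3 and 44.7 CPM with mut9, 32-fold higher (log2 fold change 5.00 ± 0.59, adjusted p = 3.53e-05 by edgeR). MMP9 differed from the other 11 in that its mean with mut9 exceeded that without any construct, 6.86 ± 0.823 CPM (SD, n = 3). In the other 11 the mean with mut9 lay between those of WT-EF and iEF. For some of them this order rests on iEF replicate 2. C2CD4A was at 12, 155 and 14.6 CPM in iEF cells, and APOL3 at 16, 52.6 and 13.2 CPM. In sets 1 and 3, C2CD4A, APOL3, CXCL10 and NNMT were higher with mut9 than in iEF cells.

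Secreted signals and their adhesion partners stood among these genes. CCL2 (ENSG00000108691, chr17:32582293-32584227, plus strand), the monocyte-attracting chemokine, was at 14.8, 18.6 and 8.28 CPM with WT-EF, 420.4, 86 and 222 CPM with mut9 and 284, 741 and 245 CPM in iEF cells (19.6-fold higher with mut9 than with WT-EF, adjusted p = 4.20e-05 by edgeR). CXCL10, an interferon-induced chemokine for T cells, was at 1.06, 2.13 and 1.11 CPM with WT-EF and 29.2, 3.49 and 18.2 CPM with mut9 (adjusted p = 0.000839 by edgeR). Replicate 2 of mut9 was much the lowest of its group in both genes, and still above every WT-EF library. LIF, a cytokine that acts through STAT3, was at 8.02, 6.87 and 5.38 CPM with WT-EF and 84.2, 21.2 and 76.4 CPM with mut9, against 338 ± 71.1 CPM in iEF cells. ICAM1, the leukocyte adhesion receptor, was at 9.85, 18.7 and 6.85 CPM with WT-EF and 138, 43.7 and 102 CPM with mut9. C1S, a protease of the classical complement pathway, was at 1.66, 1.48 and 1.47 CPM with WT-EF and 21.2, 4.93 and 15.6 CPM with mut9.

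The remaining genes of this group encode intracellular and membrane proteins. APOL3, an interferon-inducible apolipoprotein L, was at 1.63, 1.89 and 0.737 CPM with WT-EF and 28.2, 12.3 and 18.6 CPM with mut9, and XAF1, an interferon-inducible antagonist of XIAP, was at 3.15, 7.62 and 1.28 and 51.3, 10.8 and 30.2 CPM. NNMT, which methylates nicotinamide, was at 1.37, 1.45 and 1.08 CPM with WT-EF and 19.6, 14.8 and 10.5 CPM with mut9, and KYNU, kynureninase of tryptophan breakdown, was at 5.62, 6.17 and 5.97 and 56, 17.7 and 66.1 CPM. TM4SF1, a membrane protein of the tetraspanin-like family, was at 18, 7.69 and 11.5 CPM with WT-EF and 115, 70.1 and 121 CPM with mut9, and C2CD4A at 7.21, 9.14 and 1.18 and 72.4, 43.4 and 33.8 CPM. KYNU, TM4SF1 and NNMT were repressed by the endogenous fusion with log2 fold changes of iLuc relative to iEF of -6.52, -7.89 and -5.72. KYNU was not called in ComBat-adjusted values with limma. The exons of XAF1 overlap those of PRAL on the opposite strand over 2535 bases, and the strand setting of the counting is not given in the sources used here. The same limit holds for other genes named here. Among them are ICAM1 (815 bases) and MMP9 (430), and, further below, TPM1 (2645), TAPBP (1397) and IER3 (440).

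By the same rule, the 12 genes lowest with mut9 included the following 11: IGHG4, CALCB, POU1F1, GRP, LINGO1, FRG2FP, SPHKAP, PRSS12, SOX1, TPTE2 and NDST4, between 2.80-fold and 22.5-fold lower than with WT-EF. These 11 were activated by the endogenous fusion, and in each the mean with mut9 lay between those of WT-EF and iEF. CALCB (ENSG00000175868, chr11:14926543-15103888, plus strand), which encodes a calcitonin gene-related peptide, was at 42.6, 36.3 and 40.9 CPM with WT-EF, 5.16, 5.18 and 3.9 CPM with mut9 and 1.64 ± 0.474 CPM in iEF cells (8.45-fold lower, log2 fold change -3.08 ± 0.23, adjusted p = 2.10e-07 by edgeR). GRP, gastrin-releasing peptide, was at 45, 44.8 and 42.3 CPM with WT-EF and 11.6, 16.1 and 9.6 CPM with mut9, against 2.18 ± 0.592 CPM without a construct (adjusted p = 2.08e-05 by edgeR). Both peptide genes fell with mut9 and remained above the iEF mean.

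Developmental transcription factors formed a second part of this group. POU1F1 (ENSG00000064835, chr3:87308554-87325734, minus strand), the pituitary POU factor, was at 13.5, 29.4 and 23.4 CPM with WT-EF and 3.12, 4.69 and 6.43 CPM with mut9 (adjusted p = 0.000392 by edgeR). SOX1, a factor of neural progenitors, was at 7.81, 12.7 and 9.73 CPM with WT-EF and 1.85, 4.81 and 3.61 CPM with mut9, against 2.24 ± 0.338 CPM in iEF cells. The rest of the group was of several kinds. LINGO1, a Nogo receptor partner, was at 9.71, 16.4 and 10.5 CPM with WT-EF and 2.91, 5.3 and 2.27 CPM with mut9, SPHKAP, an anchor for protein kinase A, at 25.2, 49.3 and 25.1 and 7.91, 19.3 and 4.39 CPM, and NDST4, an enzyme of heparan sulfate synthesis, at 41.2, 61.4 and 41.4 and 15.1, 23.8 and 12.9 CPM. The lipid phosphatase homologue TPTE2 was at 16, 17.8 and 14.6 CPM with WT-EF and 4.86, 6.53 and 5.32 CPM with mut9, and the neuronal serine protease PRSS12 at 12, 13.4 and 30.3 and 3.79, 5.38 and 8.75 CPM. The exons of PRSS12 overlap SNHG8 on the opposite strand over 2487 bases. IGHG4, an immunoglobulin constant gene (8.07, 18.6 and 9.95 CPM with WT-EF and 0.393, 0.81 and 0.378 CPM with mut9), and the pseudogene FRG2FP (111, 183 and 183 and 31.7, 50.6 and 63.6 CPM) have near-identical copies elsewhere in the genome, and their values are uncertain. POU1F1, SPHKAP, SOX1, TPTE2 and NDST4 were not called in ComBat-adjusted values with limma. Of these 11 genes, only FRG2FP had a run of at least 4 GGAA units in the window searched, of 19 units, and the longest run near the other 10 was 2 units.

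**Figure D1:**
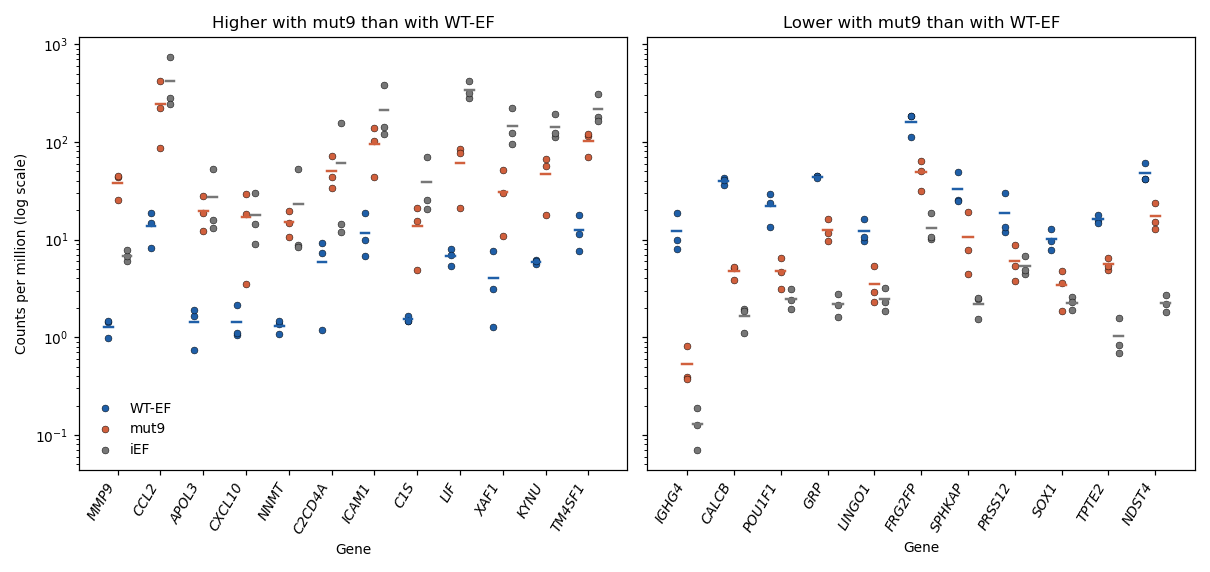
CPM (log scale) of the 12 genes highest and 11 of the 12 lowest with mut9 relative to WT-EF, with 1 point per library, 3 libraries per group, and short lines at the group means. The mut9 points lie apart from the WT-EF points in all 23 genes, which were chosen by this difference. The mut9 mean lies between WT-EF and iEF in all but MMP9.

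The side of the endogenous program on which the difference fell was examined next. The classes were taken from iLuc relative to iEF, which share no library with mut9 and WT-EF, and 41.1% of the genes tested were in 1 of them. Of 6833 genes repressed by the endogenous fusion, 1380 (20.2%) were higher and 11 (0.161%) lower with mut9, beside 4.95% and 1.2% of all genes tested. Of 5727 activated genes, 317 (5.54%) were lower and 26 (0.454%) higher with mut9. Seen from the called genes, 1380 of the 1511 higher genes (91.3%) were repressed and 317 of the 367 lower genes (86.4%) were activated by the endogenous fusion. The median log2 fold change was 0.44 in repressed and -0.19 in activated genes, and 0.05 over all genes tested.

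The same pattern was present in each replicate set. The median difference of log2 CPM (0.5 added) between mut9 and WT-EF in repressed genes was 0.23, 0.23 and 0.29 in sets 1, 2 and 3, and in activated genes it was -0.16, -0.11 and -0.17. In the 17989 genes of neither class it lay between 0.00 and 0.01. Across the 12560 endo-EF genes the log2 fold changes of the comparisons mut9 against WT-EF and iLuc against iEF had Pearson's r = -0.63 and Spearman's rho = -0.67, a description across genes that share the libraries and are not independent. Within sets, r was -0.65, -0.60 and -0.73.

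**Figure D2:**
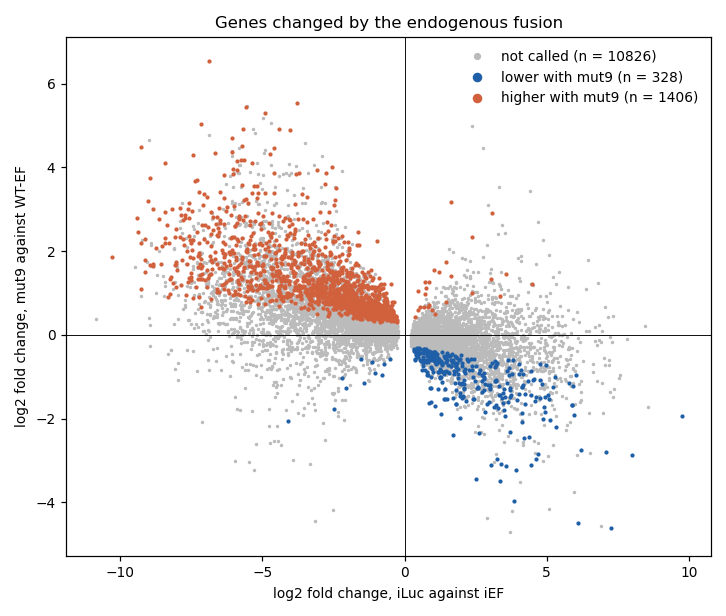
Log2 fold change of mut9 against WT-EF (vertical) plotted against that of iLuc against iEF (horizontal) for 12560 genes changed by the endogenous fusion, 1 point per gene, coloured by the call with mut9. The 1406 genes higher with mut9 lie mostly to the left of 0 and the 328 lower genes mostly to the right.

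The share of called genes grew with the size of the endogenous effect. Of the 2017 genes repressed less than 2-fold, 8.78% were higher with mut9, and the share was 21.7% at 2- to 4-fold, 24.4% at 4- to 16-fold and 29.4% of the 1438 genes repressed over 16-fold. The median log2 fold change rose over the same bins from 0.19 to 0.43, 0.75 and 1.23. Among activated genes, 2.96% of the 2634 genes under 2-fold and 12.7% of the 401 genes over 16-fold were lower with mut9, with medians of -0.15 and -0.58. Even in this highest bin 349 of 401 genes were not called, and the upper quartile of the log2 fold change was 0.01. Both shares depended on the setting. The share of activated genes lower with mut9 was 26.5% when only the 6 libraries were fitted, 3.58% without the replicate block and 2.04% without WT-EF replicate 2, whereas the share of repressed genes higher with mut9 was 37.9%, 15.7% and 7.96%.

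**Figure D3:**
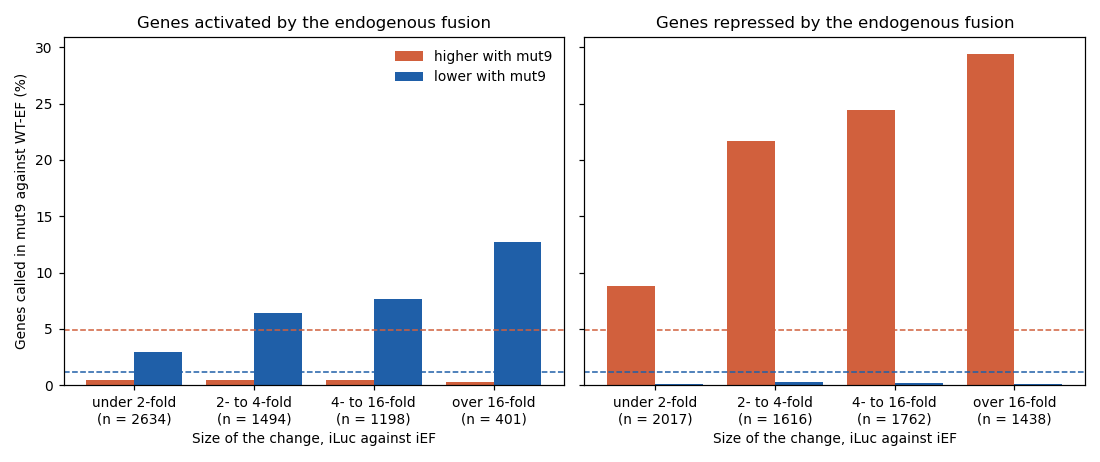
Percentage of genes called higher or lower with mut9 relative to WT-EF, in bins of the size of the change in iLuc against iEF, with the number of genes in each bin. Dashed lines mark the same percentages over all 30549 genes tested, and the share in the direction opposite to the endogenous fusion ran from 8.78% to 29.4% in repressed and from 2.96% to 12.7% in activated genes.

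GGAA runs were compared with the response in protein-coding genes activated at least 2-fold by the endogenous fusion. Of the 87 with a run of at least 4 units, 11 were lower (12.6%), 0 higher and 76 not called (edgeR, adjusted p below 0.05). Of the 1650 without such a run in the window searched, 176 were lower (10.7%) and 14 higher, so the shares were close. The median log2 fold changes were -0.18 with and -0.28 without a run. Some of the 87 averaged far below 1 CPM over the 6 libraries, such as MYH14 at 0.033 CPM, and could hardly be called. FLI1, also among the 87, counts reads of the fusion transcript that the shRNA targets. Binding of the fusion was not used. Genes with only more distant repeats, a class the paper describes, count as without a run. The effect of these limits on the shares was not tested. LIPI, a lipase that marks Ewing sarcoma and whose repeat is printed above, was at 93.9, 125 and 107 CPM with WT-EF and 47, 71.8 and 37.8 CPM with mut9 (log2 fold change -1.07 ± 0.18, adjusted p = 0.000773 by edgeR). The LIPI call was lost in ComBat-adjusted values with limma. SLAIN1, a microtubule-binding protein, was at 465, 427 and 449 and 250.2, 284 and 233 CPM (adjusted p = 0.000112 by edgeR). The peptide gene CCK was at 2.74, 3.58 and 6.29 CPM with WT-EF and 0.948, 1.23 and 1.34 CPM with mut9 (adjusted p = 0.0165 by edgeR). NR0B1, an orphan nuclear receptor and a long-known microsatellite target, was at 25.6, 29.2 and 30.6 CPM with WT-EF and 56.6, 41.7 and 41.1 CPM with mut9 and was not called (log2 fold change 0.73 ± 0.26, adjusted p = 0.12 by edgeR, 95% interval 0.18 to 1.28). The ETS sequence ACCGGAAGT, itself holding 1 GGAA unit, was searched on both strands from 250 bases before to 50 after the gene start. It was present at 1.43% of all protein-coding genes tested, and at 0.874% of those repressed and 1.36% of those activated by the endogenous fusion. Among called genes it was present at 4 of 1335 higher genes (0.3%) and 4 of 300 lower genes (1.33%). These counts are small, and the paper used a less strict ETS motif and a wider window.

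Gene lists by function were then examined, by counts of members called beside the 4.95% higher and 1.2% lower of all genes tested. Those shares are over genes with a median of 0.648 CPM, 53.7% of them protein-coding. Most members of several lists were repressed by the endogenous fusion, and 20.2% of all repressed genes were higher with mut9. Among 30 genes commonly described as activated by EWS/FLI, 7 were lower, 1 was higher and 22 were not called, with a median log2 fold change of -0.15. ADGRG2, an adhesion G protein-coupled receptor, was at 355, 363 and 308 CPM with WT-EF and 210.0, 178 and 165 CPM with mut9 (adjusted p = 0.000667 by edgeR). The member that rose was UPP1, uridine phosphorylase, at 7.74, 7.6 and 7.32 and 17.3, 12.4 and 13.6 CPM, which in these cells was repressed by the endogenous fusion (log2 fold change -3.31). Without mut9 replicate 1, UPP1 was no longer called. Several canonical targets had similar levels with both constructs: SOX2 was at 85.9 ± 6.87 and 86.4 ± 16.5 CPM, CCND1 at 2049.7 ± 216 and 2317 ± 247 CPM and PRKCB at 257 ± 4.75 and 311 ± 96.9 CPM with WT-EF and mut9 (SD, n = 3 each). These 3 were named after their values were seen.

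Among 14 genes commonly described as repressed by EWS/FLI, 10 were higher with mut9, 0 lower and 4 not called, with a median of 1.01. IGFBP3, a binding protein of insulin-like growth factors, was at 532, 259 and 267 CPM with WT-EF and 1718, 1288 and 2214 CPM with mut9, 5.09-fold higher (adjusted p = 9.58e-06 by edgeR), against 4539 ± 1159 CPM in iEF and 16.9 ± 0.863 CPM in iLuc cells. THBS1, the matrix protein thrombospondin 1, was at 5.55, 4.86 and 6.14 and 19.2, 19.2 and 26.4 CPM (adjusted p = 2.10e-07 by edgeR), and IER3, a stress-response gene, was at 87.5, 68.8 and 43.1 and 409, 182 and 292 CPM. In all 3 every mut9 library was above every WT-EF library, and the groups did not overlap in 1767 of all 1878 called genes. THBS1 was not called in ComBat-adjusted values with limma. The counts of this list ranged from 5 to 13 over the alternatives, with 6 without mut9 replicate 1, mut9 replicate 3 or WT-EF replicate 2 and 5 without WT-EF replicate 3.

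Neuropeptide and secretory granule genes divided. Of 20 tested, 6 were lower with mut9 (CALCA, CALCB, CCK, CHGA, GRP and PCSK2), 1 was higher and 13 were not called. CHGA, the granule protein chromogranin A, was at 2.23, 3.6 and 5.82 CPM with WT-EF and 0.301, 0.344 and 0.669 CPM with mut9 (adjusted p = 3.89e-05 by edgeR). GAL, galanin, moved the other way, at 1.92, 1.09 and 0.982 CPM with WT-EF and 7.05, 3.14 and 5.35 CPM with mut9 (adjusted p = 0.00277 by edgeR). The endogenous fusion activated all 6 lower genes and repressed GAL. It activated 9 and repressed 9 of the 20 tested, so the repressed side of the split rests on 1 gene. The granule protein SCG2 (68.8 ± 27.4 and 72.2 ± 15.9 CPM) and the prohormone convertase PCSK1 (99.5 ± 47.6 and 98.4 ± 20.9 CPM), named after their values were seen, were not called.

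Of 23 neural and developmental transcription factors tested, 3 were lower with mut9 and 1 higher. Beside POU1F1 and SOX1, POU3F1 was lower, at 33.3, 35.4 and 36.5 CPM with WT-EF and 20.3, 28.8 and 16.5 CPM with mut9 (adjusted p = 0.0245 by edgeR), a call lost in 5 of 14 alternative fits. Of 9 HOXD genes tested, HOXD13, a posterior HOX factor, was lower (40.2, 43.5 and 35.6 and 26.2, 30.5 and 21.4 CPM, adjusted p = 0.00212 by edgeR) and 8 were not called, 8 of the 9 having a log2 fold change below 0. Of 13 Hedgehog genes, the transducer SMO (12.7, 16.9 and 14 and 8.99, 12.1 and 9.95 CPM) and the transcription factor GLI2 (10.8, 12.1 and 14.6 and 6.24, 6.95 and 9.98 CPM) were lower with mut9, but the SMO call was lost in 8 of the 14 fits, among them each of the 6 that left out a library, and the GLI2 call in 4. The endogenous fusion activated SMO and repressed GLI2, with log2 fold changes of iLuc relative to iEF of 0.85 and -0.73. No Hedgehog gene was called by edgeR without the replicate block, without mut9 replicate 1, without WT-EF replicate 2 or without WT-EF replicate 3, beside 5 at an unadjusted p below 0.05 in the fit to all libraries and 4 called by DESeq2.

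Inflammatory genes, most of them repressed by the endogenous fusion, were often higher with mut9. Of 19 chemokines tested, 10 were higher with mut9, 0 lower and 9 not called, with a median of 2.70. CXCL8, the neutrophil chemokine, was at 211, 126 and 178 CPM with WT-EF and 1177, 293 and 1046 CPM with mut9, 4.9-fold higher (adjusted p = 0.000849 by edgeR), against 3506 ± 1029 CPM in iEF and 26.6 ± 8.69 CPM in iLuc cells. Of 19 inflammatory and haematopoietic cytokines, 13 were higher and 0 lower, with a median of 1.86. IL1B, the inflammasome product interleukin 1 beta, was at 9.37, 10.3 and 9.8 CPM with WT-EF and 93.9, 23.6 and 105 CPM with mut9 (adjusted p = 0.000951 by edgeR), and IL7 was at 1.32, 0.46 and 0.54 and 3.42, 1.62 and 3.32 CPM. Of 32 interferon-stimulated genes, 26 were higher and 6 not called, with all 32 repressed by the endogenous fusion. The antiviral factor SAMD9L was at 16.7, 13.9 and 10.7 CPM with WT-EF and 131, 53.7 and 91.1 CPM with mut9 (6.73-fold higher, adjusted p = 1.72e-06 by edgeR), its neighbour SAMD9 at 59, 74.3 and 49.9 and 229, 136 and 229 CPM, and IFIT3, which binds viral RNA complexes, at 57.4, 79.9 and 53.2 and 265, 133 and 203 CPM.

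The libraries within the groups were not alike in these genes. Among the 49 chemokine, cytokine and interferon list members that were higher, mut9 replicate 2 was the lowest mut9 library in 44 and mut9 replicate 1 the highest in 44, while WT-EF replicate 2 was the highest WT-EF library in 40. Without mut9 replicate 1 the counts of called members fell to 6 chemokines, 4 cytokines and 8 interferon-stimulated genes, whereas without mut9 replicate 2 they were 12, 14 and 30. Without WT-EF replicate 3 they were 7, 6 and 12, without WT-EF replicate 2 they were 7, 6 and 22, without mut9 replicate 3 they were 9, 7 and 19, and without WT-EF replicate 1 they were 9, 9 and 15. Over the alternatives the counts ranged from 3 to 14, from 4 to 15 and from 8 to 30.

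Antigen presentation followed the same direction. Of 17 genes of MHC class I presentation, 13 were higher with mut9 and 4 not called, with a median of 1.01. The count was 7 without mut9 replicate 1 and 8 without WT-EF replicate 3. TAP1, a subunit of the peptide transporter, was at 28.6, 26.9 and 19 CPM with WT-EF and 103, 49.5 and 68.5 CPM with mut9 (adjusted p = 0.000256 by edgeR). TAPBP, tapasin, was at 93.1, 86.1 and 71.4 and 218, 156 and 187 CPM, and HLA-E, a nonclassical class I molecule, at 129.9, 128 and 96.1 and 294, 236 and 199.9 CPM. HLA-E shares sequence with other class I genes, and reads may have been divided among them. In iEF cells the 3 genes were at 117 ± 29.9, 179 ± 31.4 and 284 ± 67 CPM (SD, n = 3).

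Some matrix, adhesion and contractile genes were also higher. Of 33 collagens and matrix glycoproteins, 17 were higher and 16 not called, and of 19 integrins 11 were higher and 8 not called, with 6 called integrins without WT-EF replicate 2. COL8A1, a short-chain collagen, was at 44.5, 27.2 and 34.2 CPM with WT-EF and 123, 104 and 124 CPM with mut9 (adjusted p = 2.81e-06 by edgeR), above the 96.9 ± 7.35 CPM of iEF cells. SPARC, a matricellular glycoprotein, was at 479, 471 and 524 and 1018, 1163 and 899.7 CPM, also above the 634 ± 149 CPM of iEF cells. LOXL2, a collagen-crosslinking oxidase, was at 31.3, 31.1 and 24 and 74.6, 54.5 and 67.2 CPM, below the 165 ± 52.2 CPM of iEF cells. Integrin subunits ITGA3 (47.1, 24.9 and 37.6 and 129, 89.2 and 135 CPM), ITGA10 (6.53, 2.83 and 4.37 and 20.6, 15.5 and 17 CPM) and ITGB3 (0.889, 0.363 and 0.712 and 2.59, 2.33 and 4.28 CPM) were 3.22-fold, 3.93-fold and 4.63-fold higher with mut9. None of the 6 genes overlapped between the groups, as in 1767 of all 1878 called genes. LOXL2, ITGA3 and ITGA10 were not called in ComBat-adjusted values with limma.

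Of 25 matrix metalloproteases, plasminogen activators and inhibitors tested, 7 were higher with mut9 and 0 lower. The endogenous fusion repressed 21 of these 25, 14 of the 20 contractile and 15 of the 18 YAP and TEAD genes below. The shares called in these 3 lists, 28%, 35% and 44.4%, stand beside 20.2% higher among all genes that it repressed. PLAUR, the urokinase receptor, was at 25.4, 17.8 and 29.5 CPM with WT-EF and 59.6, 42.6 and 71 CPM with mut9 (adjusted p = 0.000451 by edgeR). Of 20 contractile and SRF target genes 7 were higher and 13 not called. The count was 4 without the replicate block, 2 without mut9 replicate 3 or WT-EF replicate 2, and 4 without mut9 replicate 1, WT-EF replicate 1 or WT-EF replicate 3. The kinase MYLK was at 24.6, 24.7 and 35.2 and 51.1, 58.9 and 75.8 CPM, the LIM protein FHL2 at 16.4, 10.5 and 17.3 and 28.5, 21.8 and 31.2 CPM, and tropomyosin TPM1 at 122, 77.4 and 125 and 216, 148 and 315 CPM. The TPM1 call was lost in 3 fits, without mut9 replicate 3, without WT-EF replicate 2 and in ComBat-adjusted values with limma. Of 18 YAP and TEAD target genes 8 were higher, among them ANKRD1 (24.4, 16 and 46.4 and 94.9, 81.9 and 159.9 CPM), the kinase NUAK2 (1.35, 1.4 and 1.57 and 12.3, 4.05 and 10.9 CPM) and WWTR1, the coactivator TAZ itself (159, 106 and 118 and 244, 218 and 233 CPM). The count of this list was 4 without the replicate block or mut9 replicate 1, and 5 without mut9 replicate 3, WT-EF replicate 2 or WT-EF replicate 3. YAP1 was at 193 ± 19.7 CPM with WT-EF and 190.2 ± 4.25 CPM with mut9 and was not called. No member of these 3 lists was called lower.

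In the fit to all libraries, cell-division genes and chromatin regulators were mostly not called. Of 38 genes of DNA replication and mitosis 0 were called by edgeR, with 8 at an unadjusted p below 0.05, and between 0 and 24 were called in the alternatives, 24 when only the 6 libraries were fitted. All 38 log2 fold changes lay between -0.48 and 0.11, and 36 of them were below 0. The groups did not overlap in 28 of the 38 genes, beside 25% of all genes tested. MKI67, the proliferation marker, was at 419, 424 and 409 CPM with WT-EF and 398, 396 and 557 CPM with mut9, and CENPF, a kinetochore protein, at 737, 777 and 669.9 and 624, 581 and 741 CPM, 2 of the 10 genes in which the groups overlapped. Of 46 subunits of the BAF, NuRD and polycomb complexes, which cooperate with or oppose the fusion at chromatin, 1 was lower with mut9, against 14 called when only the 6 libraries were fitted, 7 with library totals and 5 with DESeq2. This was the polycomb reader CBX2, at 19.2, 29 and 28.4 CPM with WT-EF and 12.3, 17.7 and 15.9 CPM with mut9 (adjusted p = 0.0245 by edgeR), a call lost in 5 fits: without the replicate block, and without mut9 replicate 1, mut9 replicate 3, WT-EF replicate 2 or WT-EF replicate 3.

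**Figure D4:**
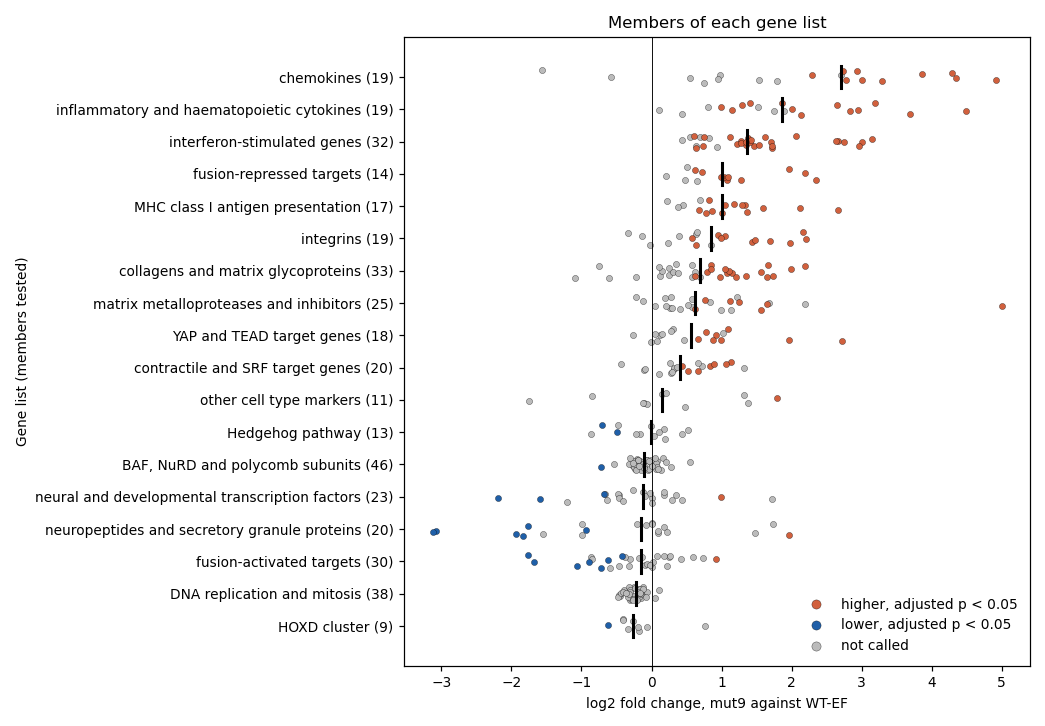
Log2 fold change of mut9 against WT-EF for each tested member of 18 gene lists, 1 point per gene, with the median of each list as a vertical bar and the number tested in brackets. The medians run from -0.26 in the HOXD cluster to 2.70 in chemokines, and calls in the 3 lists of inflammatory genes are all to the right of 0.

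The same stretch of EWS was also removed in a form with substituted tyrosines, and DAF-mut9 relative to DAF shares no library with mut9 relative to WT-EF. The tyrosines changed in the 2 forms are not the same set. In that comparison 289 genes (0.946%) were called, 86 (0.282%) higher and 203 (0.665%) lower, beside 1878 in the wildtype background. The 1511 genes higher with mut9 had a median log2 fold change of -0.02 in DAF-mut9 against DAF, and the 367 lower genes had a median of 0.00. Of the 1878 genes, 92 were called in the substituted background, 31 of the higher genes being higher and 47 lower, and 12 of the lower genes being lower and 2 higher. The difference between the 2 contrasts was tested as an interaction, and 1017 genes (3.33%) passed, 863 (2.82%) with a more negative and 154 (0.504%) with a more positive effect of the deletion in the substituted background. The WT-EF and mut9 values enter the interaction as well, so genes chosen for a large difference between them tend to pass it, and the interaction values of the genes named next are a description. In genes that DAF left near their iEF level, little rescue remained for the deletion to change.

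CCL2 was at 384, 884 and 499 CPM in DAF and 198, 367 and 375 CPM in DAF-mut9 cells (log2 fold change -0.84 ± 0.45, adjusted p = 0.67; interaction -5.13 ± 0.67, adjusted p = 0.000102 by edgeR). Both groups overlapped with the range of iEF cells. MMP9 was at 55.5, 248 and 85.5 CPM in DAF and 3.6, 8.97 and 7.81 CPM in DAF-mut9 cells, so that the deletion went with a lower level here and with a higher level in the wildtype background (interaction -9.11 ± 0.79, adjusted p = 1.68e-06 by edgeR). TLL1, a metalloprotease related to BMP1, was at 5.19, 4.43 and 3.95 CPM with WT-EF, 29.3, 16 and 22.8 CPM with mut9, 46.3, 32.9 and 27.5 CPM with DAF and 15.6, 19.6 and 14.2 CPM with DAF-mut9. LPL, lipoprotein lipase, was at 1.99, 3.36 and 3.61 CPM with WT-EF, 6.73, 8.96 and 15.6 CPM with mut9, 18.6, 31 and 23 CPM with DAF and 5.32, 5.95 and 8.4 CPM with DAF-mut9. MMP9, TLL1, LPL and COL8A1 were each called higher with mut9 than with WT-EF and lower with DAF-mut9 than with DAF.

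Among genes lower with mut9, CALCB was at 1.56 ± 0.227 CPM in DAF and 1.36 ± 0.254 CPM in DAF-mut9 cells, against 1.64 ± 0.474 CPM in iEF (SD, n = 3, interaction 2.89 ± 0.34, adjusted p = 3.37e-05 by edgeR). NDST4 was at 4.35 ± 0.745 and 4.1 ± 0.746 CPM, and POU1F1 at 1.69 ± 0.83 and 2.56 ± 1.28 CPM. SLAIN1, whose repeat is printed above, was at 119, 127 and 125 CPM with DAF and 183, 196 and 179 CPM with DAF-mut9, higher with the deletion (adjusted p = 0.00615 by edgeR), and TMEM100, an endothelial BMP-signalling membrane protein, was at 16.2, 20.7 and 15.3 CPM with WT-EF, 6.17, 9.99 and 5.67 CPM with mut9, 4.53, 5.64 and 5.91 CPM with DAF and 9.3, 10.3 and 9.66 CPM with DAF-mut9. STAMBPL1, a deubiquitinase, was at 62.1, 67 and 70.2 CPM with WT-EF, 27.9, 31 and 31.6 CPM with mut9, 16.2, 13.4 and 18.2 CPM with DAF and 21.5, 21 and 24.6 CPM with DAF-mut9, and the last step was not called (adjusted p = 0.13 by edgeR).

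**Figure D5:**
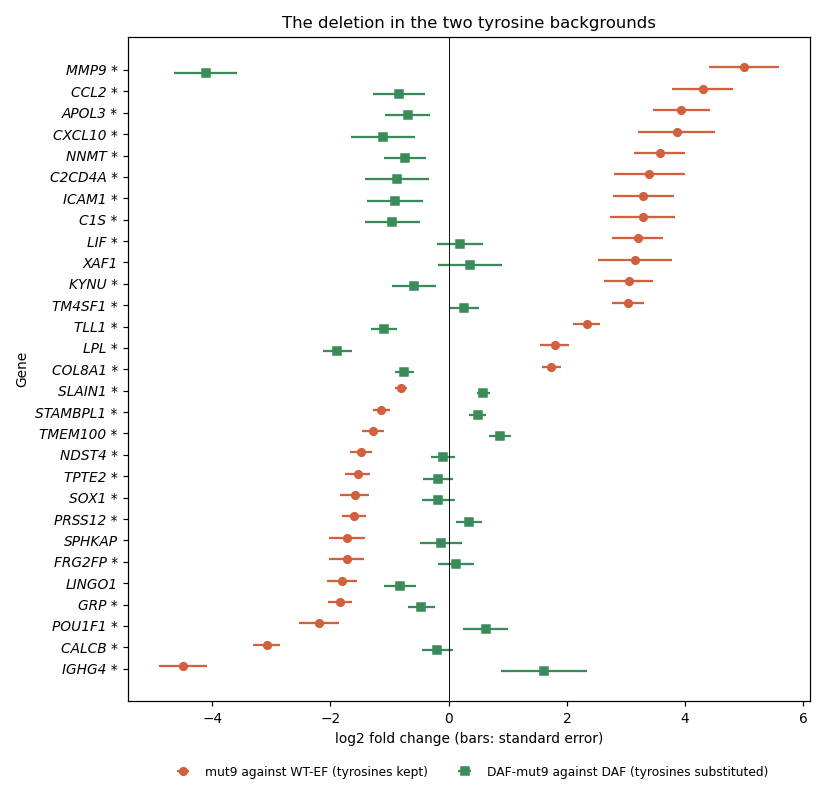
Log2 fold change and its SE for the deletion with wildtype tyrosines (circles, mut9 against WT-EF) and with substituted tyrosines (squares, DAF-mut9 against DAF), for all but 1 of the ranked and interaction genes. An asterisk marks an adjusted interaction p below 0.05, and the circles of the 12 highest genes lie above 3 while their squares lie below 0.4.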

How the data were processed

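RNA-seq counts of A673 cells were taken from the deposited files, 21 libraries in 7 groups of 3, with groups and replicate numbers from the sample labels. DAF-mut9 was taken to be the columns headed mut9d, which match its titles. The authors sequenced paired-end libraries, aligned them with STAR (version 2.5.1b in the submitters' processing notes) to hg19 and counted with htseq-count (intersection-strict). The values deposited are raw counts per Ensembl gene. Neither the annotation release nor the strand setting is given in the sources used here. The authors also deposited ComBat-adjusted values, a signal used here in an alternative only. A deposited table of the authors' own log2 fold changes and p-values was not used.

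Of 57820 genes, 48035 were detected and 30549 were tested, those averaging 1 count or more per library. The tests were run with edgeR 4.0.16 in R 4.3.3 (TMM, quasi-likelihood F test, terms for group and replicate number, all 21 libraries fitted together, 12 residual degrees of freedom) and p-values were adjusted by Benjamini-Hochberg over all genes tested. Standard errors were derived from the test, as the absolute log2 fold change divided by the square root of its F statistic, and intervals are at 95%. The replicate number pairs the groups: the deviations of same-numbered mut9 and WT-EF libraries from their group means had correlations of 0.48, 0.38 and 0.42 over 14091 genes, each higher than with the other numbers, and each number was a separate experiment of the study. Levels are TMM-scaled CPM.

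Members, gene lists and tests were chosen with earlier results of these data known. Named genes were FLI1 and EWSR1, the 12 highest and 12 lowest by log2 fold change (adjusted p below 0.05, at least 5 CPM on average, same direction in all 3 sets, a symbol in the annotation), up to 3 called members each way of each list by adjusted p or, where none was called, the 2 highest by CPM, and up to 4 genes each way by the interaction test among called genes of at least 5 CPM. Gene places and GGAA runs are from GENCODE release 44 lifted to GRCh37, in which 55538 of the gene IDs were found. Of 18 lists, PECAM1 was not found there.

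Alternatives were no replicate block, DESeq2 1.42.0, RLE factors, library totals alone, no count filter, filterByExpr, the compared libraries only, ComBat-adjusted values in limma 3.58.1 (prior 0.5), a 2-fold minimum, and each replicate left out. The scripts were tested on simulated counts. Values of a few named genes are not reported here, though counts over all genes and lists include them.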

Additional observations from a re-analysis of the deposited data

Results flagged for a closer look

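The effect of the deletion differed between the wildtype and the tyrosine-substituted background, by the interaction term of edgeR at an adjusted p below 0.05, in 1017 of the genes tested (3.33%), among them the genes named here. These genes were chosen for their change with mut9, which enters the interaction, or by the interaction test itself, so that their number and size are a description. Some already stood near their iEF level in DAF cells. CALCB was at 1.56 CPM in DAF and 1.64 CPM in iEF cells, and TM4SF1 at 252 and 218 CPM. Others did not, such as MMP9, at 130 and 6.86 CPM. Where DAF kept little of the rescue, the interaction largely repeats the difference between mut9 and WT-EF and cannot show a dependence on tyrosines. Values are log2 differences of DAF-mut9 against DAF minus mut9 against WT-EF, so a negative value means that the level rose less, or fell more, with the deletion when tyrosines were substituted. Among genes higher with mut9 the values were -9.11 for MMP9, -5.13 for CCL2, -4.96 for CXCL10, -4.63 for APOL3, -4.31 for NNMT, -4.27 for C2CD4A, -4.23 for C1S and -4.19 for ICAM1. KYNU had -3.62, LIF -2.996, TM4SF1 -2.77, LPL -3.67, TLL1 -3.43 and COL8A1 -2.49. Of these, MMP9, LPL, TLL1 and COL8A1 were themselves called lower with DAF-mut9 than with DAF, at log2 fold changes of -4.11, -1.88, -1.09 and -0.75. MMP9 in DAF cells was spread over 55.5, 248 and 85.5 CPM.

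Among genes lower with mut9 the values were 6.10 for IGHG4, 2.89 for CALCB, 2.82 for POU1F1, 2.15 for TMEM100, 1.94 for PRSS12, 1.84 for FRG2FP, 1.63 for STAMBPL1 and 1.41 for SOX1. NDST4 had 1.39, SLAIN1 1.39, GRP 1.37 and TPTE2 1.36. SLAIN1 and TMEM100 were called higher with DAF-mut9 than with DAF, at 0.58 and 0.87. No outlier statistic was computed for single values in groups of 3 libraries.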

How the results depend on the processing

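Of the 67 named genes called in mut9 against WT-EF, 49 were called in the same direction in all 14 alternative fits, and 13 of the others were lost in ComBat-adjusted values with limma. The count of called genes was 5116 when only the 6 compared libraries were fitted and 965 with a 2-fold minimum, and the count of called list members (140) was 239 with the compared libraries only and 93 with ComBat-adjusted values in limma. The share of endo-EF activated genes lower with mut9 (5.54%) was 11.3% with DESeq2, 10.3% with library totals, 10.8% without the count filter, 8.51% with filterByExpr, 26.5% with the compared libraries only and 2.25% with a 2-fold minimum. The share of endo-EF repressed genes higher with mut9 (20.2%) was 37.9% with the compared libraries only and 10.9% with a 2-fold minimum. Without the replicate block 1349 genes were called, 1346 of them also called with it, the share of activated genes lower with mut9 was 3.58%, DAF-mut9 against DAF gave 157 calls, and GLI2, SMO and CBX2 were among the named genes lost. FLI1 passed the test only with the compared libraries (log2 fold change 0.29).

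Leaving out 1 library gave 696 to 1817 called genes, 79.0% to 86.2% of them higher, 2.04% to 5.11% of activated genes lower, 7.96% to 20.5% of repressed genes higher, 77 to 149 list members, log2 fold changes of 0.26 to 0.40 for FLI1 and -0.13 to -0.05 for EWSR1, 505 to 1157 interaction genes and 105 to 304 genes in DAF-mut9 against DAF. The interaction (1017 genes) gave 1613 with DESeq2, 2007 without the count filter and 2408 with the 4 construct groups alone. DAF-mut9 against DAF (289 genes) gave 522, 912 and 737 in these, 187 with ComBat-adjusted values and 190 with a 2-fold minimum. MKI67, not called in any fit, changed sign to -0.0068 with library totals, and lay between -0.12 and 0.28 with 1 library left out, below 0 without mut9 replicate 3 and without WT-EF replicate 1. The causes were not tested. With 34.4 to 43.3 counts per CPM, values of genes far below 1 CPM rest on few counts, and intervals cover the spread of these 3 experiments only.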

Other observations

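A few genes moved with mut9 in the direction of the endogenous fusion, and were chosen after their values were seen. Among the 26 endo-EF activated genes that were higher with mut9, those with the largest change at 5 CPM or more included TLL1, TMEM176A, APOE and NPY5R. NPY5R, a receptor for neuropeptide Y, was at 3.63, 3.75 and 3.36 CPM with WT-EF and 9.27, 10.6 and 5.5 CPM with mut9, and the lipid carrier APOE at 8, 11.1 and 9.68 and 18.2, 31.3 and 20.9 CPM. The APOE call held in all 14 alternative fits, and the NPY5R call in 13. Among the 11 endo-EF repressed genes lower with mut9 were IL17RD, an inhibitor of FGF signalling (11.9, 19.7 and 14.5 and 5.02, 6.87 and 7.1 CPM, a call lost in 4 fits), GJA3, a gap junction protein (10.3, 9.39 and 15 and 4.62, 7.34 and 6.19 CPM, lost in 3), the lysosomal protease CTSC (59.4, 73.7 and 74.1 and 47.6, 47.7 and 42.1 CPM, lost in 1) and the death receptor TNFRSF21 (43.4, 40.4 and 47.3 and 33, 24 and 31.3 CPM, lost in 0). GLI2, described with the Hedgehog genes, was also among the 11.

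Called genes differed in kind from all genes tested. Protein-coding genes were 53.7% of those tested, 88.4% of those higher and 81.7% of those lower with mut9, and long noncoding RNAs 21.1%, 7.54% and 8.72%. The median level over the 6 libraries was 0.648 CPM in all genes tested, 14.5 CPM in the higher and 11.9 CPM in the lower genes, so the classes also differ in depth.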
